A study of Mus musculus with 13 samples.

Results

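The 10 genes described here carry or report Nodal and BMP signals in mouse embryonic stem cells (ESCs). They are a fixed set of names, chosen with earlier results of these data known, and all are described whatever their values. Every array probe assigned to them by its accession was used, 10 of 20972 gene symbols on the array. The ligands are Nodal, Gdf3 and Bmp4, the coreceptor is Tdgf1, the inhibitors are Lefty1, Lefty2 and Smad7, and the targets are Id1, Id2 and Id3. The ESC lines came from C57Bl/6 mice. The 2ac lines, named cl4, cl5 and cl6, carried floxed alleles, written f/f, of both Jmjd2a and Jmjd2c, demethylases of histone H3, together with Rosa26::CreERT2. The 2abc lines, named cl280.4, cl324.9 and cl324.13, carried those alleles and Jmjd2b(f/f) in addition. All groups, controls included, thus held floxed Jmjd2 alleles and the tamoxifen-activated Cre, and differed by the drug 4-hydroxytamoxifen (OHT). Control cultures had 0 nM OHT, and OHT cultures had 500 nM for 12 days and were harvested 6 days after it ended. There was 1 control and 1 OHT culture of each of the 6 lines, so each group held 3 samples. No control line without floxed alleles or without the Cre was analysed, so effects of the drug or of the Cre itself cannot be told apart from the loss of the Jmjd2 genes. The medium of all cultures was N2B27, which has no serum, with LIF, the MEK inhibitor PD0325901 and an inhibitor of GSK3.

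Nodal and Gdf3 are secreted ligands of the TGF-beta family that signal with the coreceptor Tdgf1 (Cripto) through activin-type receptors to Smad2 and Smad3, and Foxh1 is a DNA-binding partner of those Smads. The pathway switches on its own extracellular inhibitors, Lefty1 and Lefty2. BMP ligands such as Bmp4 signal through other receptors to Smad1 and Smad5, and the Id genes, which encode helix-loop-helix proteins that block other transcription factors of that fold, are classical direct targets. Smad7 is an intracellular inhibitor of receptors of the family. In mouse ESCs, BMP signals with LIF support self-renewal in serum-free medium, while cells in the inhibitors of MEK and GSK3 do not depend on added BMP.

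Bmp4, Tdgf1 and Id2 are the genes whose change passed the test over the 6 lines, and the stretches of 250 bases before their gene starts are printed here because these 3 genes moved one way in all 6 lines (RefSeq sequence, build GRCm38.p6). Of the 10 genes, the stretches of 5 were read from the RefSeq promoter table: Nodal, Tdgf1, Bmp4, Id2 and Id3. The 3 short motifs were searched on both strands, and matches are in capitals: GGCGCC, described for BMP-activated Smads and the same on both strands, CAGAC, the general Smad element, and AATCCACA, described for Foxh1. No match here overlapped another.

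Bmp4, chr14:46390670-46390919, minus strand: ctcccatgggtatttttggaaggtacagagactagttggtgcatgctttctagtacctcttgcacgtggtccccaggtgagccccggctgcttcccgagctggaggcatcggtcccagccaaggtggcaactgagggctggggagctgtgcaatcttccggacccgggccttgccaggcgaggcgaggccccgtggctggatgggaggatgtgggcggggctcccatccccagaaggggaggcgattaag

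Tdgf1, chr9:110946159-110946408, minus strand: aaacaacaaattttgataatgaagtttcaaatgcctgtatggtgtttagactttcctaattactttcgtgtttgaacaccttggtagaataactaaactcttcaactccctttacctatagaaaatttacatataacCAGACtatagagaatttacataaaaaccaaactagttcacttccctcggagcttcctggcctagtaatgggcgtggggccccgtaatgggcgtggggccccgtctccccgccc

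Id2, chr12:25096093-25096342, minus strand: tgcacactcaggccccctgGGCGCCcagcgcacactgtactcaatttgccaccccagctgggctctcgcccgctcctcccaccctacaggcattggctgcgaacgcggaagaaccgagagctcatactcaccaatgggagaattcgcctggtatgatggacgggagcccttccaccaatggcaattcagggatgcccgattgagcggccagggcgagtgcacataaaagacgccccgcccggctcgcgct

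The Bmp4 stretch held none of the motifs, the Tdgf1 stretch held 1 CAGAC and the Id2 stretch held 1 GGCGCC. Of the other promoters read, that of Id3 held 2 CAGAC and that of Nodal held none of the motifs. Over 32851 promoter stretches of the same length, 9.59% held GGCGCC, 42.2% held CAGAC and 0.718% held AATCCACA. A match is only a run of letters, and none of these data measured binding.

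Array signals were compared as log2 of the background-corrected signal relative to the 75th percentile of all probes on the same array, so a level of 0 means a signal at that percentile. Levels describe 1 probe across samples and were not compared between genes. The brightest probe of each gene stood for it, and that probe lay well above background on all 13 arrays for all 10 genes. Between 50.1 and 63.9% of all probes lay well above background on an array, and 0 were saturated. The deleted genes checked the labels: Kdm4c (Jmjd2c) fell in all 6 lines by log2 changes of -3.66 to -2.26, Kdm4a (Jmjd2a) fell by log2 changes of -0.89 to -0.53, and Kdm4b (Jmjd2b) changed by -2.59 to -1.68 in the 2abc lines against -0.04 to 0.35 in the 2ac lines. The position of each probe relative to the deleted exons is not known here. The median change of X-linked genes in line cl6 was 0.72 on the log2 scale, against -0.01 to 0.07 in the other lines, so the 2ac change of each of the 10 genes is given without it as well. The median change on chromosome 3 was above 0 in all 6 lines, from 0.10 in cl280.4 to 0.41 in cl324.13. None of the 10 genes lies there, but Skil, Trim33 and the neural marker Nes do. The part of that shift in their rises was not tested.

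As for the labelled cell type, 10 of 10 ESC markers lay well above background on all arrays. Their summed signal, in units of each array's 75th percentile, was 774 to 912 in 2ac controls, 728 to 824 in 2ac OHT cultures, 766 to 829 in 2abc controls and 713 to 752 in 2abc OHT cultures. Among the ESC markers Tfcp2l1 fell in both genotypes and Zfp42 fell in 2abc. Of 7 neural markers, 4 rose and 0 fell in each genotype, where 5.75% of all features rose in 2ac and 8.59% in 2abc. Of these, Pax6 and Map2 were well above background on at most 1 of 3 control arrays of a genotype, but on all OHT arrays. They passed the filter on dim probes only through the OHT groups, so the count cannot be weighed fairly against those shares. The summed neural signal was 7.03 to 8.12 in controls and 12.1 to 13.6 in OHT cultures of 2ac, and 5.55 to 7.52 and 10.1 to 11.3 in 2abc. The summed signal of 8 primitive endoderm markers was 12.7 to 15.5 in controls and 8.28 to 9.79 in OHT cultures of 2ac, and 14.8 to 16.5 and 14.5 to 15.6 in 2abc. The endoderm list did not move one way: Gata6 rose in both genotypes (0.72, limma adjusted p = 0.0405, and 0.88, 0.0197), while Lama1 fell in 2ac (-0.72, 0.00863). Fibroblast markers summed to 1.51 to 2.69 in 11 of the 12 samples and to 4.71 in the OHT culture of cl6, with Postn and Dcn not above background on any array. Trophectoderm markers summed to 22.4 to 34.7 and mesoderm markers to 7.68 to 12.0, with Mixl1 not above background on any array. The part of the neural and primitive endoderm sums in the changes below was not tested. In bulk RNA, fewer cells that express a gene and less RNA per cell cannot be told apart.

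Counted together, 3 of the 10 genes passed the test in 2ac, Bmp4 and Id1 rising and Tdgf1 falling, where 12.3% of all 22955 features tested were called (5.75% rising, 6.50% falling). In 2abc 3 passed, Bmp4 rising and Tdgf1 and Id2 falling, where 17.6% of features were called (8.59% rising, 9.03% falling). Over the 6 lines Bmp4, Tdgf1 and Id2 passed in those directions, where 28.7% were called (14.0% rising, 14.7% falling). Against those shares the counts say little by themselves. The 10 genes had a median log2 change of 0.22, -0.14 and 0.03 in these comparisons, against 0.02, -0.02 and 0.00 for all features.

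By separation of the groups in 2ac, the OHT cultures were all above the controls for Bmp4, Gdf3 and Id1, as for 15.3% of all features, and all below for Tdgf1 and Id2, as for 15.4%. In 2abc they were all above for Bmp4, as for 18.7% of features, and all below for Tdgf1, Id2 and Id3, as for 22.0%. The genes that moved one way in each of the 6 lines were Bmp4, higher as for 14.3% of features, and Tdgf1 and Id2, lower as for 16.1%. In controls, Nodal was higher in all 2abc lines than in all 2ac lines, as for 11.6% of features, and Id3 and Smad7 were lower, as for 21.5%. In OHT cultures Lefty1, Gdf3, Bmp4, Id3 and Smad7 were lower in 2abc, as for 16.6% of features.

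Bmp4, the BMP ligand among the 10 genes, rose in both genotypes. In the 2ac lines its level went from -1.59 to 1.59 in cl4, from -1.25 to 0.91 in cl5 and from -1.52 to 1.06 in cl6. In the 2abc lines it went from -1.34 to -0.29 in cl280.4, from -1.95 to -0.64 in cl324.9 and from -1.71 to -0.53 in cl324.13. Every OHT culture was above every control culture in both genotypes, and the OHT cultures of 2abc all lay below those of 2ac, while the controls of the genotypes overlapped. The rise was 6.21-fold in 2ac (log2 change 2.63, SE 0.19, limma adjusted p = 0.00413). It was 2.26-fold in 2abc (log2 change 1.18, SE 0.19, limma adjusted p = 0.0153), with n = 3 lines each. Over all 6 lines it was 3.75-fold (1.91, SE 0.13, limma adjusted p = 0.00109). The signal itself was low in controls, 118 to 208 units, against 836 to 1274 units in 2ac and at most 425 units in 2abc after OHT. Without line cl324.9 the adjusted p in 2abc was 0.0964 and without cl324.13 it was 0.0975 (limma), with log2 changes of 1.12 and 1.18. Without cl6 the 2ac change was 2.67 (limma adjusted p = 0.0186). A second probe assigned to Bmp4 was not well above background on any of the 13 arrays and gives no level.

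The log2 rise of Bmp4 in 2abc minus that in 2ac was -1.46 (SE 0.27, 95% interval -2.11 to -0.80). That difference had an unadjusted limma p of 0.00166 and an adjusted p of 0.303, so it did not pass. The single lines of the genotypes did not overlap in it, with rises of 2.15 to 3.18 in 2ac and 1.05 to 1.30 in 2abc. The 2abc arrays all shared 1 slide with those of cl6, whose rise was 2.57, while cl4 and cl5 were on other slides. With 1 line of 2ac on the shared slide, the parts of genotype and slide in the difference cannot be told apart.

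Tdgf1, the membrane-anchored coreceptor that Nodal and Gdf3 need, fell in every line. Its level went from 5.74 to 5.42 in cl4, from 5.79 to 5.29 in cl5 and from 5.61 to 5.23 in cl6. In the 2abc lines it went from 5.76 to 5.35 in cl280.4, from 5.55 to 5.08 in cl324.9 and from 5.51 to 4.92 in cl324.13. All OHT cultures lay below all controls of their genotype, and the genotypes overlapped in both conditions. By the brightest probe the fall was small. The log2 change was -0.40 (SE 0.08, limma adjusted p = 0.0319) in 2ac, -0.49 (SE 0.08, limma adjusted p = 0.0160) in 2abc and -0.45 over the 6 lines (SE 0.06, limma adjusted p = 0.00428). These are 75.6%, 71.1% and 73.3% of the signal in controls. For that probe the change differed by -0.09 between genotypes (95% interval -0.37 to 0.19).

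Tdgf1 had 3 probes, and the other 2 also fell in both genotypes. In a fit of all 30648 kept probes, their log2 changes were -0.36 (limma adjusted p = 0.0666) and -0.43 (0.0285) in 2ac, -0.61 (0.0151) and -0.69 (0.00875) in 2abc, and -0.49 (0.00568) and -0.56 (0.00264) over the 6 lines. Their change in 2abc minus that in 2ac was -0.25 for each (limma adjusted p = 0.559 and 0.490), which did not pass. The latter probe changed by -0.73 to -0.67 in the 2abc lines and by -0.55 to -0.33 in the 2ac lines. The call over the 6 lines held under all 17 alternatives run, while that in 2ac held under 8 of 18, with limma adjusted p of 0.00480 to 0.168 and a log2 change of -0.44 to -0.35. Without a single line the limma adjusted p in 2ac was 0.114 (cl4), 0.168 (cl5), 0.0702 (cl6, with a change of -0.42), 0.0689 (cl324.9) and 0.0628 (cl324.13). It was 0.0582 without the line as a block and 0.0641 with the slide in its place. With median scaling of the arrays the limma adjusted p was 0.0886 in 2ac and 0.0505 in 2abc. The 2abc call was also lost without cl324.9 (limma adjusted p = 0.100) and without cl324.13 (0.119).

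Nodal, the ligand itself, showed no change that passed the test. In 2ac its level was 4.76 ± 0.15 (SD, n = 3) in controls and 4.88 ± 0.29 in OHT cultures, and in 2abc it was 5.05 ± 0.05 and 4.94 ± 0.26. Control and OHT cultures overlapped in both genotypes. The log2 changes in single lines were 0.03 to 0.30 in 2ac, and in 2abc 0.24 in cl280.4, -0.20 in cl324.9 and -0.35 in cl324.13. The limma log2 change was 0.13 in 2ac (95% interval -0.20 to 0.45, adjusted p = 0.598) and -0.10 in 2abc (-0.43 to 0.22, adjusted p = 0.635). Without cl6 the 2ac change was 0.04. Over the 6 lines it was 0.01 (-0.22 to 0.24, limma adjusted p = 0.943), an interval that leaves room for small changes only.

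Gdf3, a ligand that shares Tdgf1 with Nodal, was higher after OHT in all 3 lines of 2ac. Its level there went from 6.34 to 6.51 in cl4, from 6.14 to 6.46 in cl5 and from 6.32 to 6.82 in cl6. In 2abc it went from 6.22 to 6.25, from 6.17 to 6.08 and from 6.14 to 6.01 in cl280.4, cl324.9 and cl324.13. The 2ac groups did not overlap, and the 2abc groups did. The log2 change in 2ac was 0.33 (SE 0.09, limma adjusted p = 0.0687), which missed the threshold, and that in 2abc was -0.06 (SE 0.09, limma adjusted p = 0.695). A second, dimmer probe gave 0.53 in 2ac (limma adjusted p = 0.0227) and 0.06 in 2abc (0.718) in the fit of all probes. The gene passed in 2ac under 5 of 18 alternatives, with limma adjusted p of up to 0.235 under the others, and without cl6 the change was 0.25 (0.152). Among those 5 were the mean of both probes, which brings in the dimmer one (0.43, limma adjusted p = 0.0322) and the slide as the block (0.33, 0.0489). The 2 arrays of the cl4 OHT culture, counted as 1 sample, differed by 0.28 for this probe, the widest gap among the 10 genes. With the second array alone, which was on the slide of the cl4 control, the 2ac change was 0.38 (limma adjusted p = 0.0381).

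Lefty1 and Lefty2, secreted inhibitors of Nodal that its signal switches on, showed no change that passed the test, and lines differed in direction. The Lefty1 level went from 2.27 to 2.19 in cl4, from 2.38 to 1.95 in cl5 and from 1.85 to 3.66 in cl6. In 2abc it went from 2.64 to 1.90 in cl280.4, from 1.15 to 1.66 in cl324.9 and from 1.07 to 1.05 in cl324.13. The cl6 OHT culture was the highest of the 12 samples. The log2 change was 0.44 (SE 0.46, limma adjusted p = 0.600) in 2ac and -0.08 (SE 0.46, limma adjusted p = 0.924) in 2abc, and without cl6 the 2ac value was -0.25, of the opposite sign. The 95% interval in 2ac, -0.69 to 1.57, covers a rise and a fall alike.

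The Lefty2 level went from 3.18 to 3.13 in cl4, from 3.39 to 2.75 in cl5 and from 3.03 to 3.86 in cl6. In 2abc it was lower after OHT in each line, going from 3.60 to 2.94 in cl280.4, from 2.53 to 1.82 in cl324.9 and from 2.36 to 1.13 in cl324.13. The 2abc groups still overlapped, because the cl280.4 OHT culture stayed above the controls of the other lines. The log2 change was 0.04 (SE 0.28, limma adjusted p = 0.945) in 2ac and -0.87 (SE 0.28, limma adjusted p = 0.0834) in 2abc. The 2ac value rested on cl6, and without that line it was -0.35 (limma adjusted p = 0.311). Leaving out cl6, a 2ac line, which changes only the shared estimate of the spread for 2abc, gave a limma adjusted p of 0.0326 at the same change in 2abc. The 2abc value passed under 2 of 18 alternatives, with limma adjusted p of up to 0.335 (without cl324.13, a change of -0.69). Over the 6 lines the change was -0.41 (limma adjusted p = 0.173), and without a single line it ran from -0.24 without cl5 (limma adjusted p = 0.386) to -0.61 without cl6 (0.0325). It did not pass under the other 16 of 17 alternatives, with limma adjusted p up to 0.431 (the slide as block).

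Smad7, the intracellular inhibitor, had log2 changes of 0.10 (SE 0.14, limma adjusted p = 0.698) in 2ac, 0.01 (SE 0.14, limma adjusted p = 0.969) in 2abc and 0.06 (limma adjusted p = 0.716) over the 6 lines, none past the threshold. Without cl6 the 2ac change was 0.02. The 95% interval over the 6 lines was -0.19 to 0.31. Its levels were 2.41 to 2.59 in 2ac controls and 2.52 to 2.69 in 2ac OHT cultures, against 1.71 to 1.95 and 1.62 to 2.09 in 2abc. All 6 samples of 2abc lay below all 6 of 2ac. Among all features, 21.5% lay lower in 2abc in controls and 16.6% in OHT cultures, and the share doing so in both was not counted. The separation was not tested. The 2abc samples shared a slide with cl6 only, whose levels were 2.41 and 2.69. With 1 line of 2ac on that slide, genotype and slide cannot be told apart.

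**Figure D1:**
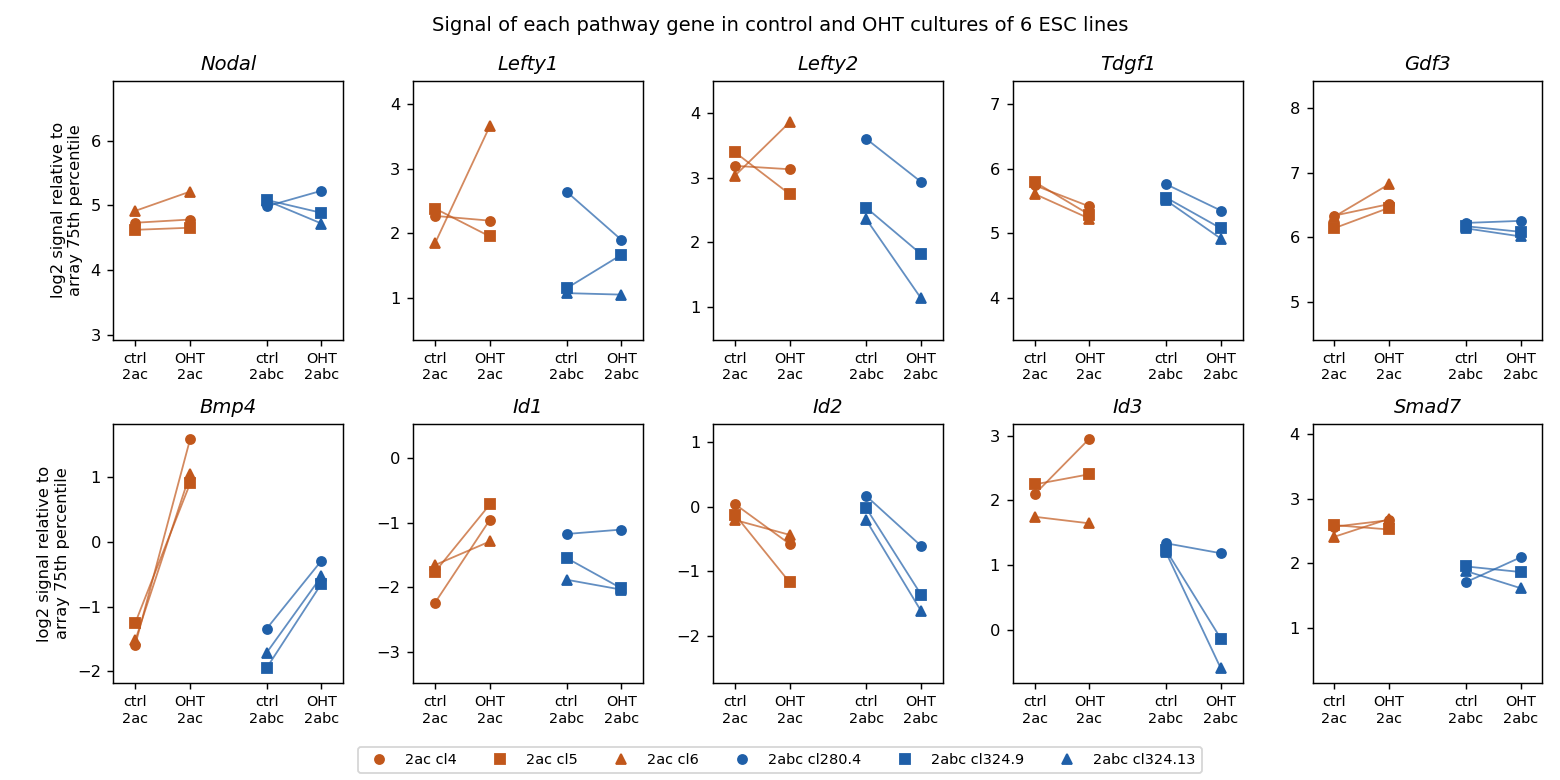
Log2 signal relative to the array's 75th percentile (vertical axis, each panel spanning the same number of log2 units) for the 10 genes in cultures of both genotypes without (ctrl) and with OHT. Each symbol is 1 ESC line and lines join the 2 cultures of a line. All 6 lines slope up for Bmp4 and down for Tdgf1 and Id2, Id1 rises in the 3 lines of 2ac, and the single lines of Lefty1 go both ways.

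The Id genes, targets of BMP signals, did not move as a group. Id2 fell in all 6 lines. Its level went from 0.04 to -0.57 in cl4, from -0.12 to -1.17 in cl5 and from -0.20 to -0.43 in cl6. In 2abc it went from 0.17 to -0.60 in cl280.4, from -0.02 to -1.36 in cl324.9 and from -0.21 to -1.61 in cl324.13. The OHT cultures lay below the controls without overlap in both genotypes. The log2 change was -1.17 in 2abc, 44.5% of the control signal (SE 0.19, limma adjusted p = 0.0159), and -0.90 over the 6 lines, 53.6% of it (SE 0.14, limma adjusted p = 0.00665). In 2ac it was -0.63 (SE 0.19), and its limma adjusted p of 0.0881 missed the threshold, as it did under all 18 alternatives run (lowest 0.0545). Without cl6 it was -0.83 (limma adjusted p = 0.0742). The 2abc call was lost without cl324.9 (limma adjusted p = 0.0999) and without cl324.13 (0.106), and the call over the 6 lines held in all 17 alternatives.

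Id1 went up in the 3 lines of 2ac, from -2.24 to -0.96 in cl4, from -1.76 to -0.72 in cl5 and from -1.66 to -1.29 in cl6. In 2abc it went from -1.18 to -1.11 in cl280.4, from -1.55 to -2.02 in cl324.9 and from -1.88 to -2.04 in cl324.13. The 2ac groups did not overlap and the 2abc groups did. The rise in 2ac was 1.86-fold (log2 change 0.90, SE 0.20, limma adjusted p = 0.0392), and the change in 2abc was -0.18 (SE 0.20, limma adjusted p = 0.560). The signal was low, 102 to 150 units in 2ac controls and 210 to 271 units in 2ac OHT cultures. The size of the 2ac change was smaller with a model-based background correction (0.67) and in the authors' deposited table (0.59). The 2ac call held under 10 of 18 alternatives, and without a single line its limma adjusted p was 0.162 (cl4), 0.186 (cl5), 0.0615 (cl324.9) and 0.0731 (cl324.13). It was 0.0666 without the line as a block and 0.0845 with the slide as the block. Without cl6, the 2ac line with the smallest rise, the 2ac change was 1.16 (limma adjusted p = 0.0276), and Id1 passed over the 6 lines (0.49, limma adjusted p = 0.0267), where the change with all lines was 0.36 (limma adjusted p = 0.108).

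Id3 went from 2.10 to 2.96 in cl4, from 2.25 to 2.41 in cl5 and from 1.75 to 1.64 in cl6. In 2abc it went from 1.34 to 1.18 in cl280.4, from 1.23 to -0.14 in cl324.9 and from 1.19 to -0.60 in cl324.13. The 2abc OHT cultures lay below all 2abc controls, though cl280.4 only by a narrow margin. The log2 change was 0.31 (SE 0.34, limma adjusted p = 0.617) in 2ac and -1.11 (SE 0.34, limma adjusted p = 0.0742) in 2abc. Without cl280.4 the 2abc change was -1.58 (limma adjusted p = 0.0180), and it also passed under 4 other alternatives, median scaling of the arrays (0.0484), a model-based background correction (0.0475), the authors' deposited table (0.0472) and a robust variance trend (0.0334). The other 13 of 18 did not pass, and without cl324.13 the change was -0.76 (limma adjusted p = 0.315). The 2ac change without cl6 was 0.51 (limma adjusted p = 0.451). Id3 was lower in 2abc than in 2ac in controls and in OHT cultures alike, with no overlap. So were 21.5% of all features in controls and 16.6% in OHT cultures. The share that was so in both was not counted, and the separation was not tested.

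**Figure D2:**
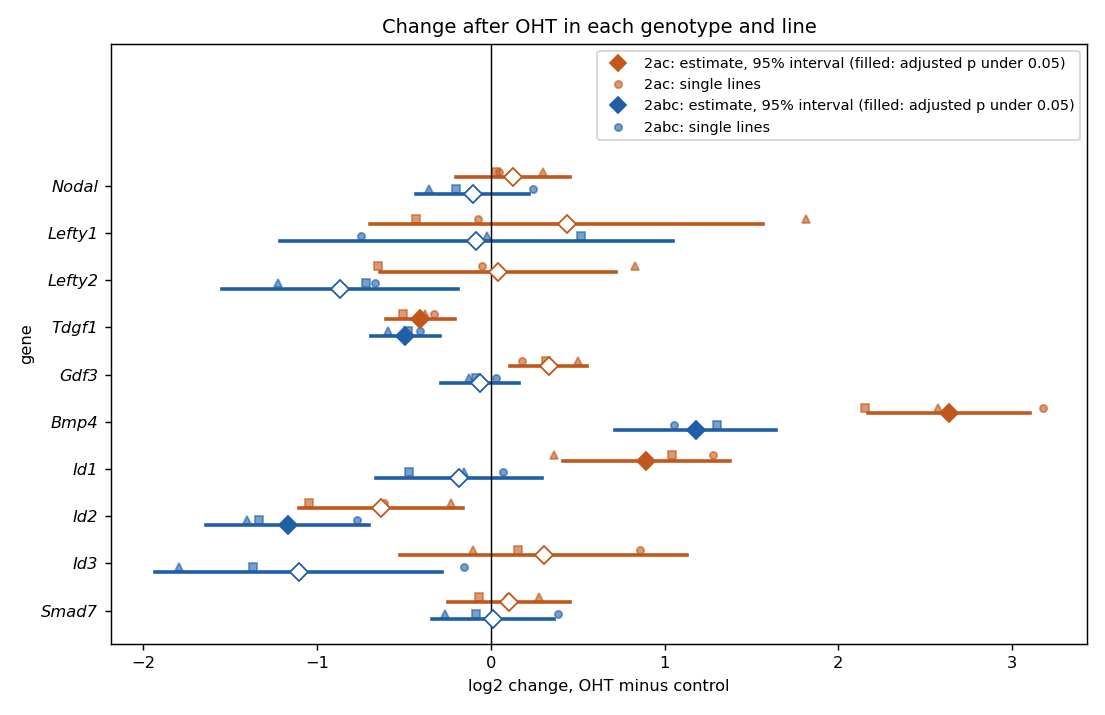
Log2 change from control to OHT (horizontal axis) for each of the 10 genes in 2ac and 2abc. Diamonds are limma estimates with 95% intervals, filled where the adjusted p was under 0.05, and small symbols are the single lines. Bmp4 lies to the right of 0 and Tdgf1 to the left in both genotypes, the filled diamonds of Id1 (0.90) and Id2 (-1.17) belong to 2ac and 2abc, and the Lefty1 lines in 2ac run from -0.43 to 1.81.

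The test of the difference between the genotypes' changes called 0 of the 10 genes, and 0% of all 22955 features, with 2525 features at an unadjusted limma p under 0.05. At that unadjusted level stood 4 of the 10, each with a change lower in 2abc: Bmp4 (-1.46, limma adjusted p = 0.303), Id1 (-1.08, 0.352), Gdf3 (-0.39, 0.400) and Id3 (-1.41, 0.406). So the calls of Id1 in 2ac and of Id2 in 2abc are not shown to differ between genotypes. For Id2 the difference was -0.54 (95% interval -1.20 to 0.13, limma adjusted p = 0.519).

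The other genes of the pathways were counted by list, to be read against the shares of all features called: 12.3% (2ac), 17.6% (2abc) and 28.7% (6 lines). Among 23 tested genes of 27 listed for Nodal and activin signalling, 2 rose and 2 fell in 2ac, and 4 rose and 2 fell in 2abc, with a median log2 change of 0.02 and 0.18 and 12.3% and 17.6% of all features called. Foxh1, the partner of Smad2, rose in both (0.72, limma adjusted p = 0.0333, and 0.61, 0.0415). Tmem132a also rose in both (0.42, limma adjusted p = 0.0428, and 0.59, 0.0152). Pmepa1, an inhibitor of TGF-beta signals that the signal itself induces, fell in both (-1.25, limma adjusted p = 0.0189, and -1.42, 0.0119), and it fell in 6 of 6 lines. In 2abc the type II receptor Acvr2a (0.52, limma adjusted p = 0.0285) and the Smad corepressor Skil (0.75, 0.0394) passed, and so did Cfc1, the other coreceptor of the Cripto family, with a fall of -2.16 (0.0273), though it was well above background on only 2 of 3 arrays of that OHT group. Gdf1, a ligand close to Gdf3, fell in 2ac (-0.89, limma adjusted p = 0.0293), and its value in 2abc was 0.54 (0.0820). Its transcript is shared with another gene, so the probe may not measure Gdf1 alone. Over the 6 lines 7 rose and 4 fell, adding Smad4, Inhbb and Trim33 (0.28 to 0.86) to those that rose and the proprotein convertases Pcsk6 and Furin (-0.39 and -0.49), which cut Nodal into its active form, to those that fell (limma adjusted p from 0.0236 to 0.0484 for these 5). Skil and Trim33 lie on chromosome 3, whose median change was above 0 in all 6 lines.

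Among 20 tested genes of 33 listed for BMP signalling, 0 rose and 3 fell in 2ac, 2 rose and 0 fell in 2abc, and 4 rose and 2 fell over the 6 lines, with medians of -0.04, 0.05 and -0.10. Of all features 12.3%, 17.6% and 28.7% were called. Those that fell in 2ac were the ligand Bmp7 (-0.66, limma adjusted p = 0.0280), the type I receptor Acvr1 (-0.49, 0.0399) and the secreted BMP-binding protein Twsg1 (-0.48, 0.0200). The values of Bmp7 and Acvr1 in 2abc were 0.35 (limma adjusted p = 0.108) and 0.10 (0.569). In 2abc the receptors Bmpr2 (0.72, limma adjusted p = 0.0314) and Acvrl1 (0.72, 0.0255) rose. Smad6, the inhibitor related to Smad7, fell over the 6 lines (-0.57, limma adjusted p = 0.0237), as did Twsg1 (-0.33, 0.00958). Smad5 (0.32, limma adjusted p = 0.0420) and Fstl1 (SE 0.20, adjusted p = 0.0149, log2 changes of 1.01 in 2ac and 0.98 in 2abc) rose over the 6 lines. The other listed BMP ligands and receptors had at most values that missed the threshold, such as Bmpr1a at 0.29 over the 6 lines (limma adjusted p = 0.0713).

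Among 9 tested of 11 other BMP targets, 2 rose in each genotype, 0 fell in 2ac and 1 fell in 2abc, with medians of 0.13 and 0.02. Of all features 5.75% rose in 2ac, and in 2abc 8.59% rose and 9.03% fell. Id4, the other gene of the Id family, rose in 6 of 6 lines, by 0.67 in 2ac (limma adjusted p = 0.0235) and 0.91 in 2abc (0.0102). The family thus held 1 gene that passed upward in both genotypes, Id4, 1 that passed upward in 2ac, Id1, 1 that passed downward in 2abc, Id2, and 1 that passed in neither, Id3. Cdx2 rose (2.11, limma adjusted p = 0.00776, and 0.88, 0.0499), but it was well above background on 1 of 3 control arrays of 2ac and on 1 of 3 arrays of either 2abc group, so its size is uncertain. Cdx2 passed the filter on dim probes only through the 2ac OHT group, where it was high. The counts of targets that rose thus cannot be weighed fairly against those shares. Gata2 fell in 2abc (-1.33, limma adjusted p = 0.0389).

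Of 6 tested among 9 other Nodal targets, T passed in 2ac (1.39, limma adjusted p = 0.0490), with 2 of 3 control arrays above background, and 0 passed in 2abc. T passed the filter on dim probes only through the 2ac OHT group, where it was high, so its call cannot be weighed fairly. Gsc fell over the 6 lines (-1.18, limma adjusted p = 0.0198). All 11 listed TGF-beta genes were tested: the ligand Tgfb2 rose in both genotypes (1.02, limma adjusted p = 0.00961 in 2ac, and adjusted p = 0.00435 in 2abc), by 1.26 over the 6 lines, and the coreceptors Eng (-0.71, limma adjusted p = 0.0364) and Tgfbr3 (-1.08, 0.0202) fell in 2abc. Over the 6 lines 1 rose and 3 fell, where 14.0% of all features rose and 14.7% fell, Ltbp1 being the third (-1.12, limma adjusted p = 0.0192).

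**Figure D3:**
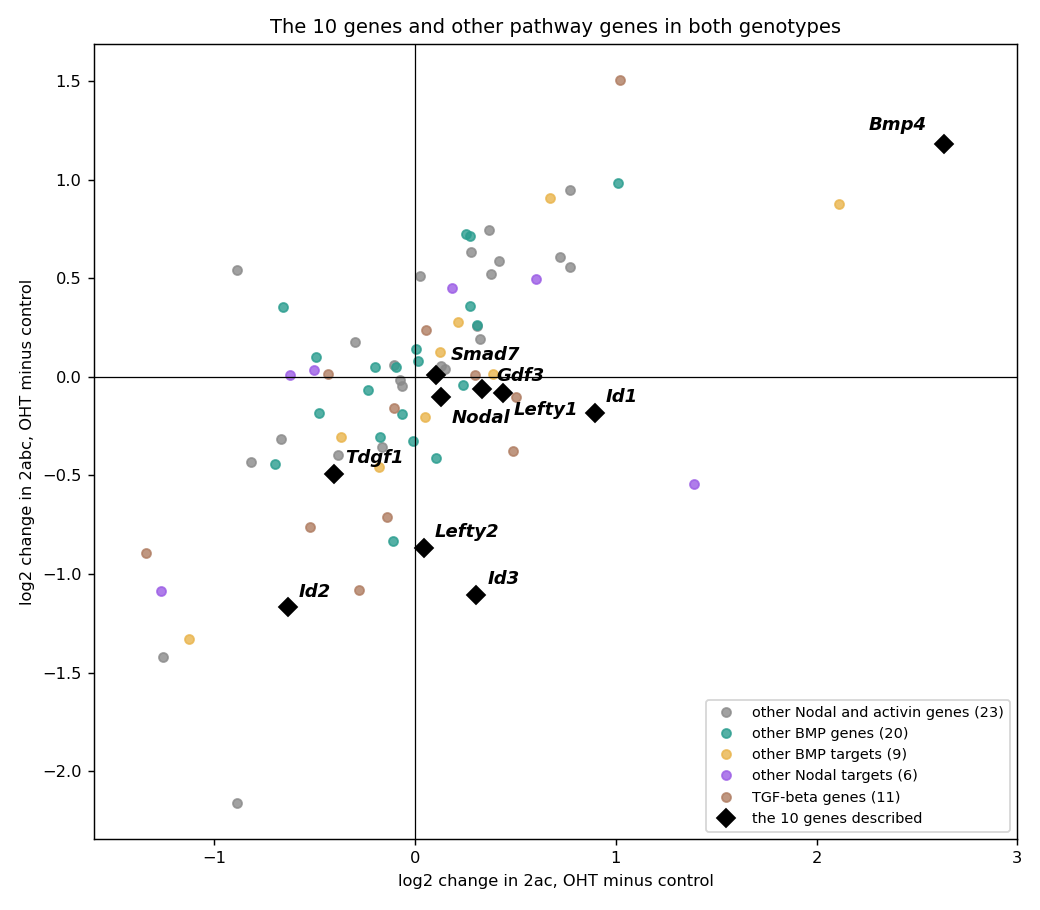
Log2 change from control to OHT in 2ac (horizontal axis) and in 2abc (vertical axis) for the 10 genes (black diamonds, named) and for the tested genes of the 5 other lists (coloured points). Bmp4 lies farthest right, at 2.63 in 2ac and 1.18 in 2abc, and Id2 and Tdgf1 lie low in both, while Id1 and Id3 lie right of 0 and below 0.

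Across the 12 samples, which share arrays, slides and 2 conditions, some of the 10 genes had like profiles. Tdgf1 and Id2 had a Pearson r of 0.916, Lefty1 and Lefty2 of 0.827, and Id3 and Smad7 of 0.823. The lowest was that of Tdgf1 with Bmp4, at -0.502. Any pair of genes that both respond to OHT is pulled together or apart by that response. Levels that differ between the genotypes do the same, and Id3 and Smad7 were both lower in 2abc in either condition. For the changes of the 6 lines, r was 0.824, 0.734 and 0.594 for the first 3 pairs and 0.654 for Tdgf1 with Bmp4. All these values are descriptions only.

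Among 14652 other named genes, those with the profile most like each gene over the 12 samples were picked by Pearson r. For Tdgf1 these were Cyp2c29 (r = 0.985), Atp6v0a4 (0.981) and Fgr (0.975), and for Id2 they were Mael (0.976), Serpinb6d (0.975) and Nmi (0.974). For Bmp4 they were Zfp105 (0.971), Zfp532 (0.959) and Vrtn (0.956). The log2 changes in 2ac and 2abc were 0.48 and 0.26 for Zfp105, 0.65 and 0.31 for Zfp532, and 2.69 and 0.44 for Vrtn. As these genes were picked by likeness in the same samples, a pattern like that of Bmp4 is built into the choice. For the other genes the nearest profile was that of Mfsd12 for Nodal (r = 0.921), Dok2 for Lefty1 (0.910), Gsr for Lefty2 (0.968), Tppp3 for Gdf3 (0.977), Blmh for Id1 (0.900), Prmt6 for Id3 (0.968) and Aida for Smad7 (0.949).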

How the data were processed

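Total RNA was labelled with Cy3 and hybridised to 1-colour Agilent arrays, 13 arrays of 12 samples. The spot intensity values were made with version 11.0.1.1 of Agilent's Feature Extraction, per the file headers, with background subtracted on each array. Of 59305 non-control spots, 184 to 253 per array carried an outlier flag and were left out, and spots of a probe were averaged (55681 probes). The OHT culture of cl4 had 2 arrays, the first on the slide of cl5 and the second on the slide of the cl4 control. Where the slide was the block, their mean was given the slide of the control. The 2 arrays were averaged and counted as 1 sample. They differed by a median of 0.113 log2, against 0.143 between the OHT cultures of cl4 and cl5 on 1 slide.

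From log2 signal, each array's 75th percentile (signals of 409 to 521) was subtracted. Probes were named by accession through a RefSeq table (GRCm38.p6), which matched 27656 of 29123 probes with a RefSeq accession. Probes were kept where all arrays of 1 or more groups had them well above background (30648), and the probe with the highest mean stood for a gene, leaving 22955 features, 14653 with a symbol. Changes were fitted with limma 3.58.1 in R 4.3.3 on the 12 samples, the ESC line being a fixed block (4 residual degrees of freedom), for 2ac, 2abc, their mean and their difference. P-values were adjusted over all features (Benjamini-Hochberg) and called under 0.05. The fit was checked on simulated data.

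The pairing comes from the labels, as both cultures of a line carry its name. Deviations from group means of paired cultures correlated at 0.16 (cl4), 0.46 (cl5), 0.50 (cl6), 0.03 (cl280.4), -0.02 (cl324.9) and -0.01 (cl324.13). The labels name 3 lines of each genotype. They do not say whether cl324.9 and cl324.13, whose names share a number, have a common origin. The number of arrays limits the precision.

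As an alternative served the authors' deposited table of log2 values (19371 probes, column medians 10.43 to 10.51). These correlated at 0.994 to 0.998 with log2 signal of the same arrays, from which the scale was taken. The submitters' processing notes name limma. How the authors centred that table, if at all, is unknown here. Other alternatives were median and quantile scaling, normexp background correction with offset 50 (on median spot signals, since the mean signal it was planned on was not used here), no filter or a stricter filter on dim probes, the mean of a gene's probes, no line block, the slide as block, the samples of 1 genotype alone, the second hybridisation of cl4 alone, a robust variance trend, and leaving out each line. The 10 genes, the lists and the markers were chosen with earlier results of these data known. All 10 genes are named whatever their values, and other pathway genes where called.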

Additional observations from a re-analysis of the deposited data

How the results depend on the processing

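Of 700 values of the 10 genes under an alternative, 655 kept their side of the threshold, 28 lost a call, 17 gained one and 0 reversed a call. The number of the 10 genes called in 2ac, 3 with all samples and the line block, was 1 with no filter on dim probes, 1 with no replicate block, 1 in the samples of 2ac alone and 1 to 3 when a line was left out (1 without cl4, cl5, cl324.9 or cl324.13). In 2abc, 3 became 5 with a robust variance trend, 1 in the samples of 2abc alone, and 0 to 4 when a line was left out (0 without cl324.9 or cl324.13), and it stayed 3 with no replicate block. Over the 6 lines, 3 stayed 3 with no replicate block and became 3 to 5 when a line was left out (5 without cl6). The difference between genotypes called 0 of the 10 throughout. Which choices cause these shifts was not tested, except that the samples of 1 genotype alone, or of fewer lines, leave fewer samples. Over all features the calls in 2ac went from 2813 to 908 with no filter, 348 without cl4 and 167 without cl5, and those in 2abc from 4044 to 1535 with no filter, 247 without cl324.9 and 215 without cl324.13. Over the alternatives the Bmp4 change was 2.07 to 2.88 in 2ac and 0.75 to 1.24 in 2abc. Beyond the calls of Tdgf1 and Id1 in 2ac, leaving out the line block changed no call of the 10 genes.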
